A study of Bos taurus with 56 samples.

Results

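Open chromatin of 4-cell cattle embryos was compared with that of 2-cell embryos, peak by peak. The members were all peaks of the 4-cell list (5810) and of the 2-cell list (2636), together 8446 of the 673059 peaks in the 11 lists of the series. A peak with at least 1 bp in common with any peak from the other stage was taken as shared. This gave 659 shared 4-cell peaks, matched by 693 shared 2-cell peaks, 5151 peaks found at the 4-cell stage only and 1943 found at the 2-cell stage only. The assay was ATAC-seq, in which a transposase cuts and tags accessible DNA. The series holds 56 libraries of Bos taurus in 11 groups, from germinal vesicle (GV) oocytes to day 14 elongating embryos. The 4-cell group and the 2-cell group had 6 libraries each, every library being made from pooled embryos, and the labels give no breed, sex, culture condition or treatment for either. The 6 libraries of a stage had been merged into 1 list of positions before deposit, without heights or read counts.

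In cattle the early cleavage embryo lives largely on RNA and protein stored in the oocyte. Its own genome is transcribed at a low level during the first divisions, and the main wave of embryonic genome activation comes around the 8-cell to 16-cell stage. Chromatin that opens before that wave is of interest because it may mark regulatory DNA that is made accessible ahead of transcription, and because part of it may be carried over from the oocyte. Promoters and enhancers in use are typical sites of open chromatin.

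No spread between libraries could be computed from merged lists, so no p-value is given and the differences below are between 1 list and 1 list. Sequencing depth was unknown, and a peak absent from a list may be closed or may have been missed at that depth; these cannot be told apart. Intervals in brackets are 95% exact Clopper-Pearson intervals, which cover counting error only and treat neighbouring peaks as independent. Genes were not assigned, since no annotation of the build of the lists (UMD3.1) was at hand, and the stage labels were not checked against marker genes for the same reason.

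Most of what was open at the 4-cell stage was not in the 2-cell list, and most 2-cell peaks were gone from the 4-cell list. The shared class made up 11.3% [10.5% to 12.2%] of the 4-cell peaks and 26.3% [24.6% to 28%] of the 2-cell peaks. The 4-cell list was 2.2 times as long and covered 2.66 Mb, against 1.15 Mb in the 2-cell list. By bases, the sequence common to both lists was 0.446 Mb, which is 16.8% of the 4-cell bases and 38.9% of the 2-cell bases. The shared class therefore held a larger part of the bases than of the peaks, 23% of the 4-cell bases and 43.9% of the 2-cell bases. The 4-cell stage did not simply add to the 2-cell set: stage-only peaks were found on both sides, 2.65 times as many at the 4-cell stage as at the 2-cell stage. When only the 2636 widest 4-cell peaks were kept, so that both lists had the same length, 21.5% of these and 22.9% of the 2-cell peaks were shared. Among peaks of at least 329 bp, the median over all lists, it was 13% of the 4-cell and 40.1% of the 2-cell peaks. When peaks that overlapped an oocyte peak were left out, the shares were 5.94% of the 4-cell and 14.1% of the 2-cell peaks.

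Where the lists met, they met closely. The 659 and 693 shared peaks formed 705 overlapping pairs, of which 597 were one to one. In these 597 pairs the centres lay a median of 66 bp apart, and 384 pairs (64.3%) had centres within 100 bp. The 4-cell peak was the wider one in 410 pairs, the 2-cell peak in 184, and 3 pairs were equal. The median width was 660 bp on the 4-cell side and 529 bp on the 2-cell side, with a median ratio of 1.14 within pairs. A median of 82.4% of the 4-cell peak and 97.9% of the 2-cell peak lay in the overlap, and in 246 pairs the 2-cell peak lay wholly inside the 4-cell peak, against 79 pairs the other way round. Overlaps of under 50 bp were rare, 6 of the 597. The remaining pairs came from sites where 1 wide peak faced several narrow ones. This was seen for 40 4-cell peaks, with up to 4 2-cell peaks each, and for 12 2-cell peaks, with 2 4-cell peaks each. At shared sites the 4-cell list thus held wider and more continuous peaks. The greater width was not particular to shared sites. The median was 377 bp over all 4-cell and 330 bp over all 2-cell peaks, and 4-cell only peaks were wider than 2-cell only peaks too.

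Shared peaks were wide and stage-only peaks narrow. The median width was 693 bp in the shared class on its 4-cell side and 538 bp on its 2-cell side, 364 bp for 4-cell only peaks and 304 bp for 2-cell only peaks. The narrowest peak was of nearly the same width in both lists, 233 bp at the 4-cell stage and 230 bp at the 2-cell stage, so the lower bound of width hardly differed. At the wide end the classes separated. Peaks of 1000 bp or more made up 27.5% of the shared class (181 of 659), 0.854% of the 4-cell only class (44 of 5151) and 0.154% of the 2-cell only class (3 of 1943). Read the other way, the share found at both stages grew with width. In the widest of 5 groups of about equal size in each list (from 519 bp for 4-cell and from 478 bp for 2-cell peaks) the shared part was 39.7% of the 4-cell and 74.8% of the 2-cell peaks. In the narrowest group it was 2.48% of the 4-cell peaks and 8.71% of the 2-cell peaks. A wide peak meets more positions than a narrow one, and the shares are not corrected for this.

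**Figure D1:**
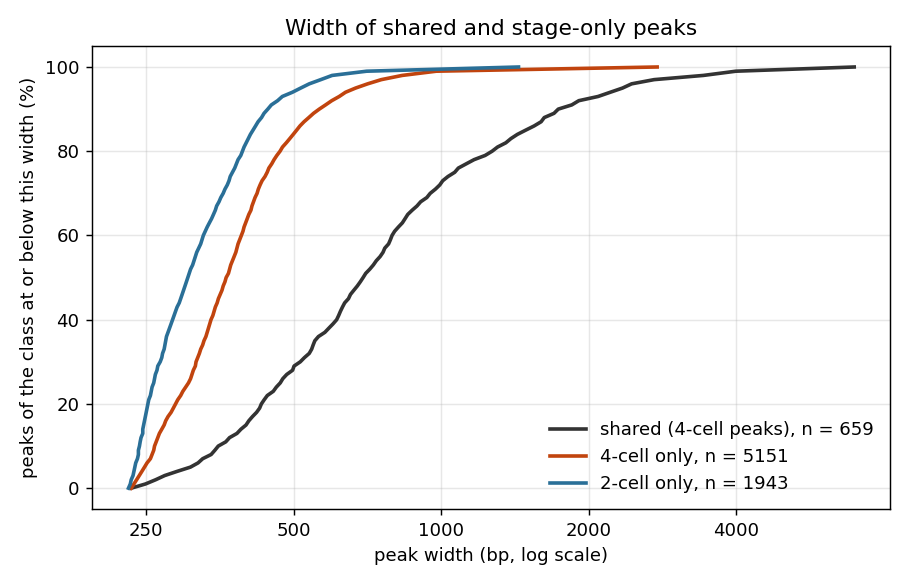
Cumulative share of peaks (vertical axis, %) at or below a given width (horizontal axis, bp, log scale) for the 659 shared peaks by their 4-cell width, the 5151 4-cell only peaks and the 1943 2-cell only peaks. The shared curve lies far to the right, with a median of 693 bp, against 364 bp for 4-cell only and 304 bp for 2-cell only peaks.

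Few of the stage-only peaks were near misses. Of the 4-cell only peaks 118 (2.29%) had a 2-cell peak within 1 kb and 447 (8.68%) within 10 kb, and the median distance was 274 kb. Of the 2-cell only peaks 79 (4.07%) had a 4-cell peak within 1 kb and 300 (15.4%) within 10 kb, and the median distance was 107 kb. The shorter distance on the 2-cell side goes with the longer list it was measured against. Widening all peaks by 250 bp on each side brought the shared shares to 12.5% of 4-cell and 28.3% of 2-cell peaks, little more than the 11.3% and 26.3% above. At a coarser scale the stages did share ground, since 88% of the 2-cell only peaks lay in a 1 Mb window with a 4-cell peak, where 73.5% of all windows held one. In the other direction 64.7% of the 4-cell only peaks lay in a window with a 2-cell peak, where 48.3% of all windows held one.

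The widest members of each class were not typical of it in width. In 4 of the 5 widest shared sites the 2-cell list had several separate peaks under a single 4-cell peak. The widest spanned 6972 bp on chromosome 3 from 8102265 to 8109236 (UMD3.1), where the 2-cell list had 4 separate peaks of 286, 1729, 3173 and 352 bp. A site of 6389 bp on chromosome 14 from 480044 to 486432 faced 3 peaks of 589, 1188 and 3558 bp at the 2-cell stage. Sites of 5035 bp on chromosome 8 (76341539 to 76346573) and of 4773 bp on chromosome 15 (2661 to 7433) faced 2 peaks each. The last of them, 4321 bp on chromosome X from 89972516 to 89976836, faced a single 2-cell peak of 3747 bp. These sites were not particular to cleavage: those on chromosomes 3, 14 and X had a peak in all 11 lists, and those on chromosomes 8 and 15 in 10 lists, all but that of metaphase II (MII) oocytes.

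Each of the 5 widest 4-cell only peaks was found again in later lists. On chromosome 29 a peak of 2761 bp from 5512512 to 5515272 was found again in the 8-cell, 16-cell, both morula, in vivo blastocyst and day 14 lists. A second peak of the same 1 Mb window, 1664 bp from 5689571 to 5691234, was found again in the 8-cell, morula and day 14 lists. The other 3 lay on chromosome X from 58027786 to 58029995 (2210 bp), on chromosome 20 from 31672234 to 31673997 (1764 bp) and on chromosome 27 from 23716833 to 23718548 (1716 bp). The X site was also found in GV oocytes, and was absent from the MII and 2-cell lists in between. The chromosome 27 site skipped the 8-cell list and was back in the 16-cell and both morula lists. Ranking by width among 4-cell only peaks kept in the 8-cell, 16-cell and morula lists added a peak of 1391 bp on chromosome 23 from 27331972 to 27333362, which was also present in GV oocytes.

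The widest 2-cell only peaks were shorter, and their later courses ranged from all 7 later lists to day 14 alone. The widest, 1439 bp on chromosome 14 from 400808 to 402246, was absent from the 4-cell and 8-cell lists and present in the 16-cell, morula and day 14 lists. A peak of 1098 bp on chromosome 8 from 36112837 to 36113934 was seen in GV oocytes, at the 2-cell stage and again at day 14 only. Another of 940 bp on chromosome 3 from 13918103 to 13919042 was seen at the 2-cell stage and at day 14. By contrast, 1040 bp on chromosome 17 from 51464709 to 51465748 had peaks in every later list, and so was missing from the 4-cell list alone among the 9 embryo lists. The peak of 962 bp on chromosome X from 38125113 to 38126074 returned in every later list but that of the 16-cell embryos. Among 2-cell only peaks kept in the 8-cell, 16-cell and morula lists, the next widest were 760 bp on chromosome 29 from 30289810 to 30290569 and 738 bp on chromosome 9 from 2736 to 3473. Both were found in GV oocytes and in all 7 later lists, and the chromosome 9 site in MII oocytes too, so that the 4-cell list was the one gap in its course.

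The classes were spread differently over the chromosomes. Density is given as peaks per Mb of a chromosome divided by that of the class over the whole genome. Shared peaks were concentrated on chromosomes 14 (3.91 times), 29 (3.68 times), 27 (3.11 times) and 17 (2.47 times), and sparse on chromosome 12 with 1 peak (0.0443 times). Much of that came from a few clusters. Without the 12 windows of 1 Mb that were among the 10 fullest of either list, the densities of shared peaks were 1.06 times on chromosome 14, 0.761 times on 29, 2.26 times on 27 and 1.72 times on 17. Chromosome X was then the densest, at 2.49 times. The 4-cell only peaks were spread more evenly, between 1.67 times on chromosome 27 and 0.437 times on chromosome 22. Their other denser chromosomes were 5 (1.33 times), 6 (1.32 times) and 10 (1.26 times). The 2-cell only peaks had another order, with chromosomes 29 (1.75 times), 18 (1.62 times), 19 (1.48 times) and 25 (1.44 times) at the top.

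Chromosomes 18, 19 and 25 are among the gene-rich chromosomes of cattle, and there the stage-only classes differed, as did the whole lists. Peak density on these 3 together, relative to all other chromosomes, was 1.07 [0.959 to 1.19] for 4-cell only peaks and 1.58 [1.35 to 1.83] for 2-cell only peaks. The intervals did not overlap. For the whole lists the ratio was 1.01 [0.91 to 1.12] over all 4-cell and 1.3 [1.13 to 1.5] over all 2-cell peaks. Without the 12 fullest windows the ratios were 1.04 [0.93 to 1.17] and 1.62 [1.39 to 1.89] for the 4-cell only and 2-cell only classes. They were then 1.03 [0.925 to 1.15] for all 4-cell and 1.48 [1.28 to 1.71] for all 2-cell peaks. For shared peaks the ratio was 0.567 [0.364 to 0.845], and it was 0.907 [0.58 to 1.36] without those windows, so the low value went with the clusters on other chromosomes. Chromosome X showed the reverse order of classes. It held 8.95% of the shared peaks, 4.02% [3.5% to 4.59%] of the 4-cell only peaks and 2.62% [1.96% to 3.44%] of the 2-cell only peaks, where X is 5.59% of the spanned genome. The density of shared peaks on X was 1.6 times that of the class, 2.49 times without the 12 fullest windows and 1.1 times with 50% of both peaks required.

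**Figure D2:**
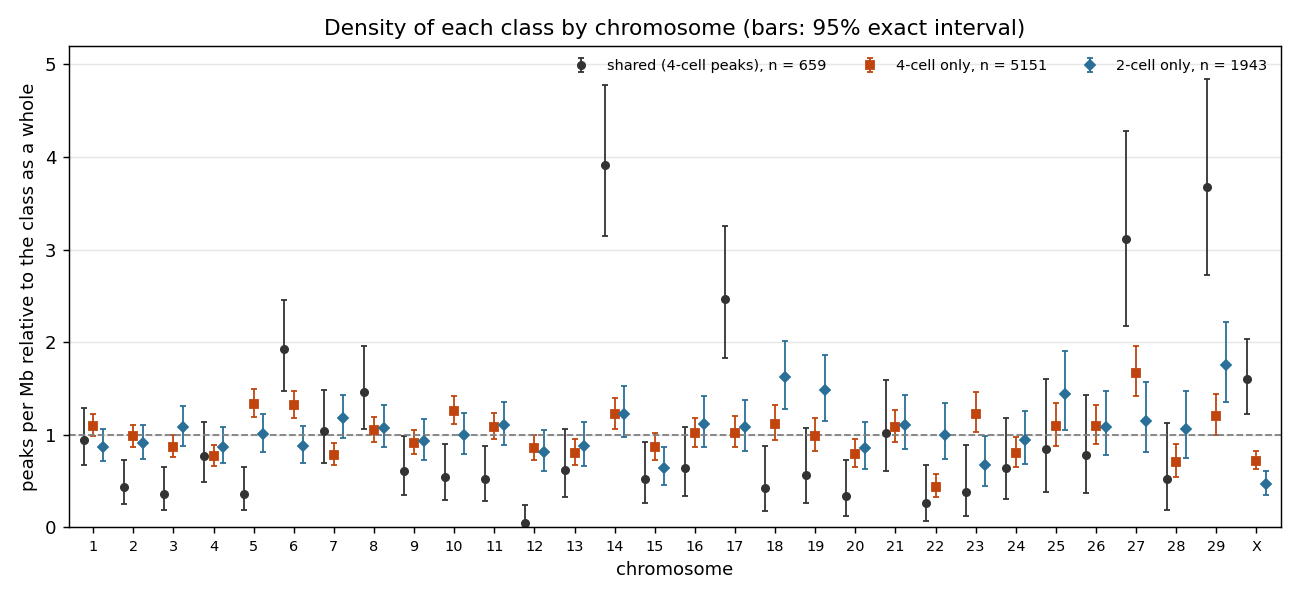
Peaks per Mb on each chromosome relative to the class as a whole (vertical axis), by chromosome (horizontal axis), for shared peaks, 4-cell only and 2-cell only peaks, with 95% exact intervals as bars and the dashed line at the class mean. Shared peaks stand out on chromosomes 14, 17, 27 and 29, and 2-cell only peaks lie above 4-cell only peaks on chromosomes 18, 19 and 25.

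Shared sites were packed into clusters more than stage-only sites. Of the 2678 windows of 1 Mb, 1969 held a 4-cell peak and 1294 a 2-cell peak. Windows with 5 or more peaks made up 11.6% of all windows for the 4-cell list (310 windows) and 2.24% for the 2-cell list (60 windows). These windows held 41.7% of the 4-cell peaks and 24.5% of the 2-cell peaks. The 10 fullest held 6.78% of the 4-cell and 12.3% of the 2-cell list, and 8 of the 10 were the same for both. By class, the 10 fullest windows held 35.7% of the shared peaks (235 of 659), 4.1% of the 4-cell only peaks and 5.25% of the 2-cell only peaks. The nearest peak of the same class lay within 10 kb for 51.3% of the shared, 17% of the 4-cell only and 6.18% of the 2-cell only peaks. Such distances shorten as a class grows, yet the shared class, the smallest, was the most tightly packed.

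The fullest window of both lists was the first Mb of chromosome 14, with 95 4-cell and 83 2-cell peaks, of which 59 of the 4-cell and 67 of the 2-cell peaks were shared. It was followed in the 4-cell list by chromosome 27 between 28 and 29 Mb (48 4-cell and 27 2-cell peaks) and chromosome 29 between 30 and 31 Mb (43 4-cell and 57 2-cell peaks). Chromosome 6 between 6 and 7 Mb held 40 4-cell and 26 2-cell peaks and chromosome 1 between 145 and 146 Mb held 35 4-cell and 41 2-cell peaks. In proportion to list length these clusters weighed more at the 2-cell stage: the chromosome 14 window took 1.64% of the 4-cell and 3.15% of the 2-cell list. They were full in other stages as well, with 70 GV oocyte and 129 blastocyst peaks in the chromosome 14 window and 32 MII oocyte and 116 blastocyst peaks in the chromosome 29 window.

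Ranked by the difference in number of peaks, not allowing for list length, some windows favoured 1 stage. The largest excess of 4-cell peaks was on chromosome 29 between 5 and 6 Mb, with 38 4-cell and 3 2-cell peaks. That window, which holds a pair of the widest 4-cell only peaks, had 82 peaks at the 8-cell stage and 143 at day 14, with 1 peak in each oocyte list. Next came the chromosome 27 window given above, although it took 0.826% of the 4-cell and 1.02% of the 2-cell list and so weighed less at the 4-cell stage. The third was chromosome 18 between 57 and 58 Mb, with 22 4-cell and 4 2-cell peaks and none of them shared. The chromosome 18 window held 29 GV oocyte peaks, no MII peak and 79 8-cell peaks, but 3 and 2 peaks in the blastocyst lists without and with the in vivo label. In the opposite direction the largest excess of 2-cell peaks was 14, on chromosome 29 between 30 and 31 Mb, followed by 6 on chromosome 1 between 145 and 146 Mb and 6 on chromosome 4 between 27 and 28 Mb. In the chromosome 4 window 7 2-cell peaks faced 1 4-cell peak, and none was shared. Over the genome, 1520 windows had more 4-cell peaks, 310 had more 2-cell peaks and 314 had equal numbers above 0.

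**Figure D3:**
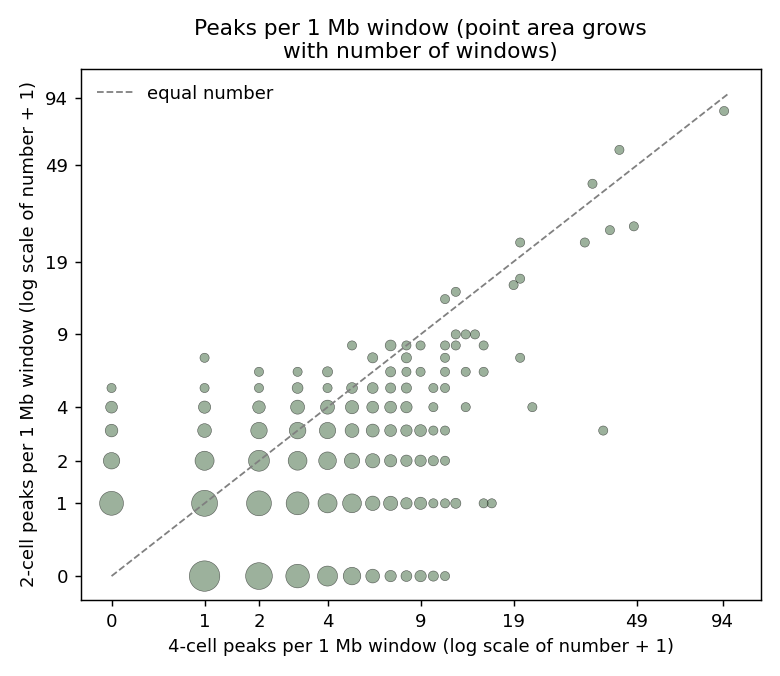
Each point is a combination of the number of 4-cell peaks (horizontal axis) and 2-cell peaks (vertical axis) in a 1 Mb window, both on a log scale of the number plus 1, and its area grows with the number of windows. The point at 95 4-cell and 83 2-cell peaks is the first Mb of chromosome 14, and the point at 38 4-cell and 3 2-cell peaks (chromosome 29 between 5 and 6 Mb) lies far below the dashed line of equal numbers.

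Sites open at both cleavage stages were mostly open again at the 8-cell stage, and stage-only sites mostly were not. Of the shared peaks 87.7% [85% to 90.1%] overlapped an 8-cell peak, of the 4-cell only peaks 26.1% [24.9% to 27.3%] and of the 2-cell only peaks 16.6% [15% to 18.4%]. The background is 33% for all 4-cell peaks and 35.2% for all 2-cell peaks, and the 8-cell list covers 1.38% of the spanned genome. Although the 4-cell stage is 1 division nearer, the full 2-cell list thus had no lower share than the full 4-cell list. The shared class was 26.3% of the shorter 2-cell list and 11.3% of the 4-cell list. The 4-cell only peaks were found more often than the 2-cell only peaks, with intervals that did not overlap. With 50% of both peaks required, in place of 1 bp, the 8-cell shares were 76.1% of shared, 9.52% of 4-cell only and 6.66% of 2-cell only peaks, in the same order.

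The same order held at the 16-cell and morula stages. At the 16-cell stage the shares were 83.2% of the shared, 24.5% of the 4-cell only and 16.9% of the 2-cell only peaks, against 31.1% of all 4-cell and 34.2% of all 2-cell peaks. In morulae they were 83.2% of the shared, 28.8% of the 4-cell only and 18.7% of the 2-cell only peaks, against 34.9% of all 4-cell and 35.6% of all 2-cell peaks. Morulae derived in vivo held 66.8% of the shared, 19.7% of the 4-cell only and 12.9% of the 2-cell only peaks, against 25.1% of all 4-cell and 26.6% of all 2-cell peaks. From the 8-cell stage to the morula the share of each class moved by a few percentage points, leaving aside the in vivo morula list, where all 3 classes were lower. With 50% of both peaks required, the stage-only classes came close together. At the 16-cell stage 9.24% of the 4-cell only and 8.09% of the 2-cell only peaks were then found, in morulae 8.13% of the 4-cell only and 6.7% of the 2-cell only peaks, and in morulae derived in vivo 5.13% of the 4-cell only and 4.39% of the 2-cell only peaks.

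In blastocysts the stage-only classes stood in the opposite order, by small shares. The blastocyst list held 83% [79.9% to 85.8%] of the shared peaks, 4.27% [3.74% to 4.86%] of the 4-cell only peaks and 6.43% [5.38% to 7.62%] of the 2-cell only peaks, against 13.2% of all 4-cell and 26.4% of all 2-cell peaks. In blastocysts derived in vivo the list held 71.6% of the shared, 3.3% [2.83% to 3.83%] of the 4-cell only and 4.37% [3.51% to 5.38%] of the 2-cell only peaks, against 11% of all 4-cell and 21.9% of all 2-cell peaks. Here the intervals of the stage-only classes overlapped. They also overlapped in the blastocyst list once the 12 fullest windows were left out, at 3.06% [2.6% to 3.58%] of the 4-cell only and 3.98% [3.14% to 4.97%] of the 2-cell only peaks. Outside those windows the blastocyst list held 8.71% of all 4-cell and 17.9% of all 2-cell peaks. Inside those windows 36.2% of the 4-cell only (68 of 188) and 60.7% of the 2-cell only peaks (51 of 84) were in the blastocyst list. There it held 70.1% of all 4-cell and 85.8% of all 2-cell peaks. Both blastocyst lists are short, covering 0.0473% and 0.0551% of the spanned genome without and with the in vivo label. Even so they held most of the shared sites. At day 14, whose list covers 4.66% of the spanned genome, the shares were 94.7% of the shared, 45.4% [44% to 46.8%] of the 4-cell only and 41.4% [39.2% to 43.6%] of the 2-cell only peaks. There 51% of all 4-cell and 55.1% of all 2-cell peaks were found. With 50% of both peaks required, the day 14 shares were 66.8% of the shared, 13.9% of the 4-cell only and 12.9% of the 2-cell only peaks.

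**Figure D4:**
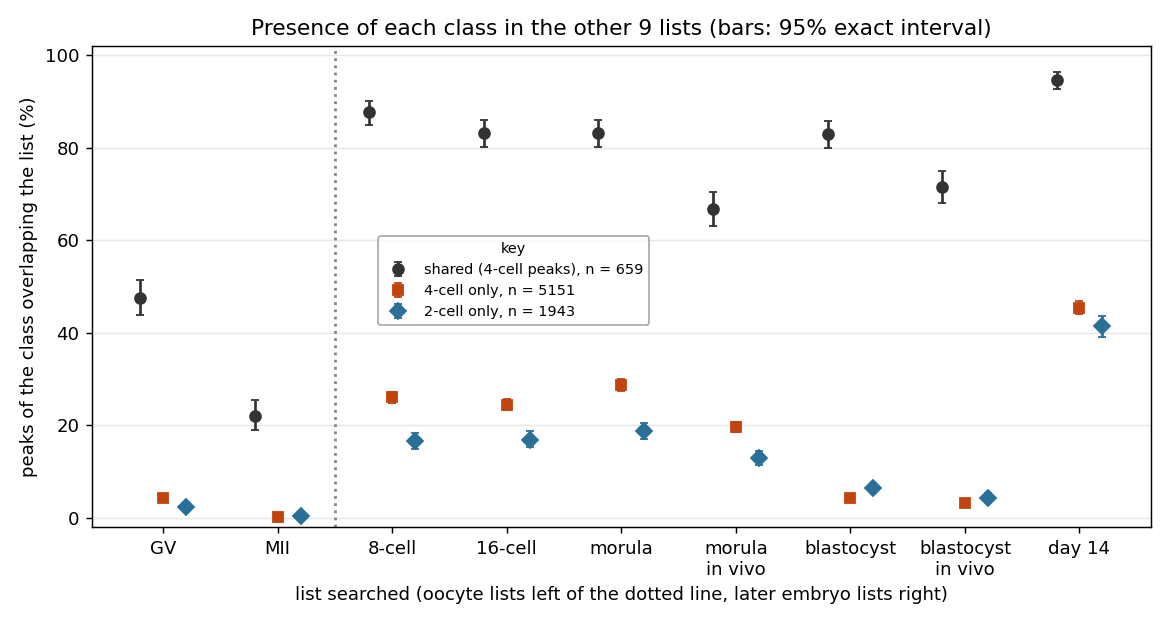
Share of each class (vertical axis, %) that overlaps a peak in each of the other 9 lists (horizontal axis, in order of development), with 95% exact intervals. The 659 shared peaks lie between 66.8% and 94.7% in the later lists, and 4-cell only peaks lie above 2-cell only peaks in every later list except the pair of blastocyst lists, where they lie below.

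Counted over all 7 later lists, the classes followed separate courses. Of the shared peaks 335 (50.8%) were in all 7 and 10 (1.52%) in none. Of the 4-cell only peaks 36 (0.699%) were in all 7 and 2273 (44.1% [42.8% to 45.5%]) in none. Of the 2-cell only peaks 18 (0.926%) were in all 7 and 994 (51.2% [48.9% to 53.4%]) in none. Over all peaks of a list, 39.3% of the 4-cell and 38.1% of the 2-cell peaks were in no later list. All 7 later lists held 6.39% of all 4-cell and 13.7% of all 2-cell peaks. Nearly as many stage-only peaks as were in no later list had no partner in any of the other 10 lists, oocytes included. These were 2260 4-cell only (43.9%) and 992 2-cell only peaks (51.1%), seen at their own stage alone. Of all 4-cell peaks 39.1%, and of all 2-cell peaks 38%, were in no oocyte or later list. Exactly 1 later list held 22.4% of the 4-cell only and 24% of the 2-cell only peaks, against 20.1% of all 4-cell and 18.3% of all 2-cell peaks. Among stage-only peaks in 2 or more later lists the commonest number was 5, with 673 4-cell only (13.1%) and 137 2-cell only peaks (7.05%). The background for 5 lists was 13.3% of all 4-cell and 8.92% of all 2-cell peaks, so neither class exceeded it. For 2-cell only peaks, 2 lists were nearly as common as 5, at 6.59%. A course through the 8-cell, 16-cell and both morula lists without either blastocyst list, in or out of the day 14 list, was followed by 644 of the 4-cell only (12.5% [11.6% to 13.4%]) and 122 of the 2-cell only peaks (6.28% [5.24% to 7.45%]). Over all peaks of a list it was followed by 11.7% of the 4-cell and 5.88% of the 2-cell peaks, close to the shares of the stage-only classes. A further 834 4-cell only (16.2%) and 372 2-cell only peaks (19.1%) were found in the day 14 list and no other later list, against 14.6% of all 4-cell and 14.5% of all 2-cell peaks.

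**Figure D5:**
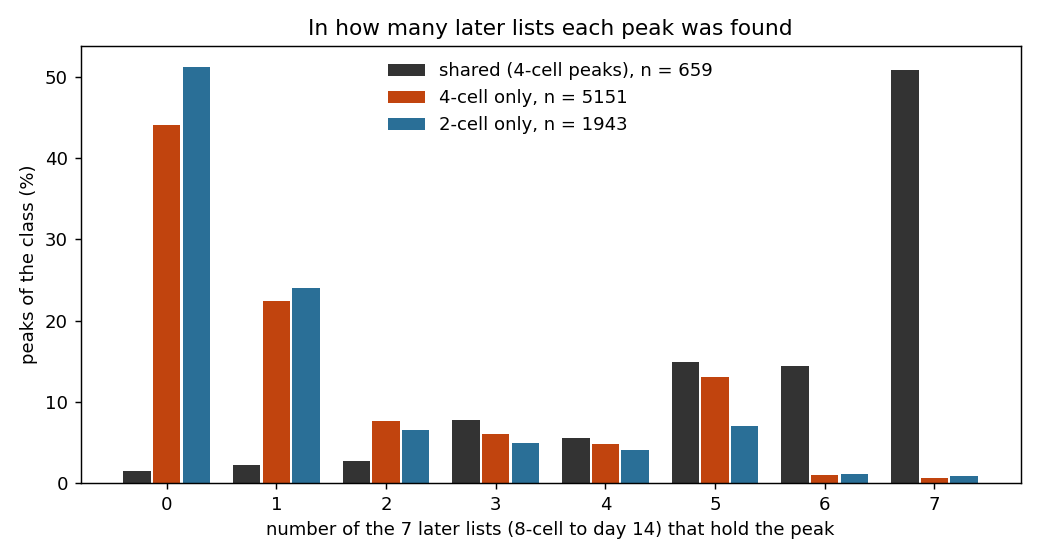
Share of each class (vertical axis, %) found in exactly 0 to 7 of the later lists (horizontal axis). Stage-only peaks pile up at 0, with 44.1% of 4-cell only and 51.2% of 2-cell only peaks, followed by 1, with 22.4% and 24%. At 5 lie 13.1% of the 4-cell only and 7.05% of the 2-cell only peaks. Of the shared peaks 50.8% are at 7.

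Presence at the 8-cell stage went with presence later, in each class and over all peaks of each list. For all 4-cell peaks in the 8-cell list, the shares were 76% at the 16-cell stage and 84.4% at day 14. For those not in it they were 8.97% and 34.5%. For all 2-cell peaks they were 80.2% and 90.1% when in the 8-cell list, and 9.14% and 36.1% when not. The shares of the stage-only classes, given next, lay below these. Of the 4-cell only peaks in the 8-cell list, 70.4% were in the 16-cell list and 79.2% at day 14, against 8.3% and 33.5% of those not in the 8-cell list. Of the 2-cell only peaks in the 8-cell list, 64.4% were in the 16-cell list and 80.2% at day 14, against 7.47% and 33.6% of those not in it. Once found at the 8-cell stage, 2-cell only peaks were thus found at day 14 about as often as 4-cell only peaks. Some sites skipped the 8-cell list, with 621 4-cell only (12.1%) and 211 2-cell only peaks (10.9%) absent there and back in the 16-cell list or in morulae without the in vivo label. These shares were near those of all 4-cell (11.5%) and all 2-cell peaks (10.1%). The 8-cell peaks met by the stage-only classes were wide, with a median of 883 bp where 4-cell only peaks and 684 bp where 2-cell only peaks met them, against 458 bp for the 8-cell list as a whole. This was not particular to them. The median was 772 bp where shared 4-cell peaks, 838 bp where all 4-cell and 750 bp where all 2-cell peaks met them. Picking by overlap also favours wide peaks. The 4-cell only peaks in the 8-cell list had a median of 396 bp themselves, against 357 bp for those not in it.

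In the 8-cell list the classes differed within ranges of width as well. Among peaks under 300 bp, 82.8% of the shared (24 of 29), 19.3% of the 4-cell only (235 of 1219) and 13.9% of the 2-cell only peaks (129 of 927) were in the 8-cell list. Among peaks of 700 bp or more it was 96% of the shared (313 of 326), 59.1% of the 4-cell only (127 of 215) and 33.3% of the 2-cell only peaks (7 of 21). The order of the classes was the same at both ends, though at 700 bp or more the intervals of the stage-only classes overlapped (52.2% to 65.7% for 4-cell only and 14.6% to 57% for 2-cell only peaks). Stage-only peaks were also reweighted to the parts that shared peaks of the same list had in its 5 width groups. The 8-cell share of 4-cell only peaks was then 38.1% and that of 2-cell only peaks 17.8%. Widths were not matched within a group. The widest group, from 519 bp in the 4-cell list, had no upper limit and held 460 of the 659 shared 4-cell peaks, so the weighting was partial. The gap between shared and unshared peaks was then 49.7 percentage points in the 4-cell list, against 61.7 without weighting. From 500 bp to under 700 bp, 35.4% [31.6% to 39.4%] of the 4-cell only and 16% [9.22% to 25%] of the 2-cell only peaks were in the 8-cell list. In the range from 300 bp to under 400 bp the intervals of these classes overlapped, at 22.2% [20.4% to 24.1%] of the 4-cell only and 19.2% [16.3% to 22.4%] of the 2-cell only peaks. At day 14 the intervals of the stage-only classes overlapped in every range of width. Both day 14 shares were 41.7% from 300 bp to under 400 bp. At 700 bp or more they were 70.2% (4-cell only) and 71.4% (2-cell only). In the blastocyst list the 2-cell only share was the higher one in every range, such as 10% against 5% from 400 bp to under 500 bp.

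Of the shared peaks 52.4% overlapped an oocyte peak, as did 4.39% of the 4-cell only and 2.73% of the 2-cell only peaks. GV oocytes held 47.6% [43.8% to 51.5%] of the shared, 4.21% [3.68% to 4.8%] of the 4-cell only and 2.42% [1.78% to 3.2%] of the 2-cell only peaks, against 9.14% of all 4-cell and 14.4% of all 2-cell peaks. MII oocytes, with the shortest list, held 22% of the shared, 0.252% of the 4-cell only and 0.412% of the 2-cell only peaks, against 2.72% of all 4-cell and 5.88% of all 2-cell peaks. The 4-cell only peaks that were present in GV oocytes, 217 in number, were listed before fertilisation, not listed at the 2-cell stage and listed again at the 4-cell stage. Sites with an oocyte peak were found later more often than sites without one. Of the shared peaks, 94.8% of those with an oocyte peak (327 of 345) and 79.9% of those without (251 of 314) were in the 8-cell list. Of the 4-cell only peaks the shares were 67.3% with an oocyte peak (152 of 226) and 24.2% without (1190 of 4925), and of the 2-cell only peaks 66% (35 of 53) and 15.2% (288 of 1890). Over all 4-cell peaks they were 83.9% with and 27.5% without an oocyte peak, and over all 2-cell peaks 91.3% and 24.8%. The stage-only shares lay below these. Shared peaks outside the oocyte lists and outside the 12 fullest windows, 202 in number, were still in the 8-cell list in 76.2% [69.8% to 81.9%], in the blastocyst list in 61.9% [54.8% to 68.6%] and in the day 14 list in 88.6% of cases. Of the 4-cell only peaks outside both, 23.5% were in the 8-cell, 2.29% in the blastocyst and 42.7% in the day 14 list. Of the 2-cell only peaks outside both, 14.2% were in the 8-cell, 3.15% in the blastocyst and 38.4% in the day 14 list. Over all 4-cell peaks outside both, the shares in these lists were 25.6%, 4.71% and 44.5%. Over all 2-cell peaks outside both they were 20.6%, 9.39% and 43.5%, and the stage-only shares lay below those of their list. The contrast between shared and stage-only sites was thus also present away from the oocyte sites and the clusters.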

How the data were processed

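Each of the 11 groups had 1 deposited list of peaks, made by the authors by merging the peaks of its libraries, per the series description. Each list held 3 columns (chromosome, start, end) and no score, so depth per library was unknown. The build was UMD3.1 and the tools were HOMER, bedtools, MACS2 and Bowtie2 2.3, per the submitters' processing notes. The order of steps, the thresholds, any shift for the transposase cut and the merging rule, each of which can change the number and width of peaks, were not given in the sources used here. Starts were read as counted from 0 and are printed counted from 1; the lists do not state this, so a start may be off by 1 base. Peaks were assigned to 1 Mb windows by their midpoint, and chromosome lengths were taken as the last position in any list. Shares have 95% exact Clopper-Pearson intervals. Overlap counts were tested on simulated data, and all 20 counts of both lists against the others equalled those of bedtools 2.31.1. The members and lists were chosen with earlier results of these data known. Regions named were the 5 widest of each class, the 3 widest stage-only peaks in the 8-cell, 16-cell and morula lists, the 5 fullest windows of each list, and the 3 windows with the largest excess in each direction. Chromosomes named in the text were chosen after their values were seen. Alternatives covered overlap, width, joining, list length, windows and chromosome X; leaving out oocyte regions was added after seeing the data. The software was scipy 1.17.1, pandas 2.3.3, numpy 2.4.6, matplotlib 3.10.9 and Python 3.11.15.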

Additional observations from a re-analysis of the deposited data

How the results depend on the processing

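No paired analysis was possible because each group has 1 merged list, and for the same reason no library could be left out. In all 8 alternatives, shared peaks were found more often than 4-cell only peaks in each of the 7 later lists, and 4-cell only peaks more often than 2-cell only peaks in 5 of them, the exceptions being the blastocyst lists, where they were found less often. A value was said to have moved when it left its counting interval. Numbers of windows and the ratio of peak numbers have no such interval and were judged by a fixed fold limit. Of the values that answer a comparison, 57 moved and are given here. A further 118 values of single later lists or chromosomes also moved and are not all listed. With 50% of both peaks required, 8.14% of 4-cell and 17.9% of 2-cell peaks were shared. The 8-cell shares were then 76.1% (shared), 9.52% (4-cell only) and 6.66% (2-cell only), with differences of 66.6 and 2.86 points between successive classes, and the day 14 shares 66.8% (shared), 13.9% (4-cell only) and 12.9% (2-cell only). Shared 2-cell peaks had a median of 587 bp. With peaks widened by 250 bp, 12.5% of 4-cell and 28.3% of 2-cell peaks were shared, the 8-cell shares were 30.3% (4-cell only) and 20.2% (2-cell only), 57 points lay between shared and 4-cell only, and the day 14 shares of the stage-only classes were 55.7% (4-cell) and 54.9% (2-cell). With a width of 329 bp or more required, the median of all lists, 13% of 4-cell and 40.1% of 2-cell peaks were shared. The 8-cell shares were 92.4% (shared), 30.3% (4-cell only) and 20.8% (2-cell only), the day 14 shares of the stage-only classes 49% (4-cell) and 47.8% (2-cell), and the density ratio of chromosomes 18, 19 and 25 for 2-cell only peaks 1.34. Joining peaks under 500 bp apart gave a median of 738 bp for shared peaks. With the 4-cell list cut to 2636 peaks, 21.5% of 4-cell and 22.9% of 2-cell peaks were shared, the 8-cell shares were 90.3% (shared), 33.5% (4-cell only) and 19% (2-cell only), with differences of 56.8 and 14.5 points, and the day 14 shares of the stage-only classes 51.4% (4-cell) and 43.8% (2-cell). Without the 12 fullest windows, 7.84% of 4-cell and 19.3% of 2-cell peaks were shared, shared 2-cell peaks had a median of 483 bp, and the density ratio of chromosomes 18, 19 and 25 for shared peaks was 0.907. Without oocyte regions, an alternative chosen after seeing the data, 5.94% of 4-cell and 14.1% of 2-cell peaks were shared, the 8-cell shares were 79.7% (shared) and 24.2% (4-cell only), 55.5 points apart, the day 14 shares 91% (shared) and 43.5% (4-cell only), and the medians of shared peaks 566 bp (4-cell) and 444 bp (2-cell). The 10 fullest windows held 5.75% of 4-cell and 10.9% of 2-cell peaks at 0.5 Mb, 7.76% of 4-cell peaks at 2 Mb (1215 windows occupied), and 8.79% of 4-cell and 19.2% of 2-cell peaks that are 329 bp or wider (738 windows with a 2-cell peak). Weighting over 5 width groups, without matching widths inside a group, gave a gap of 49.7 points between shared and unshared 4-cell peaks. Leaving out chromosome X moved none of the results answering a comparison beyond its interval. The cause of these shifts was not tested, and depth could not be assessed.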

Other observations

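On chromosome X, peaks of each class were found at the 8-cell stage more often than on the autosomes, but not in every later list. Of the shared peaks 93.2% on X (55 of 59, interval 83.5% to 98.1%) were in the 8-cell list. On the autosomes it was 87.2% (523 of 600, interval 84.2% to 89.7%), so the intervals overlapped. The difference was thus not seen in stage-only peaks alone. Of the 4-cell only peaks 47.3% on X (98 of 207, 95% interval 40.4% to 54.4%) and 25.2% on the autosomes (1244 of 4944, interval 24% to 26.4%) were in the 8-cell list. Of the 2-cell only peaks it was 39.2% on X (20 of 51, interval 25.8% to 53.9%) and 16% on the autosomes (303 of 1892, interval 14.4% to 17.7%). The 8-cell list covers less of X (0.808%) than of the autosomes (1.42%). Outside windows of 5 or more peaks the 8-cell share of 4-cell only peaks was 36.9% on X (31 of 84, interval 26.6% to 48.1%) and 23.4% on the autosomes, and the day 14 share was 35.7% on X and 41.9% on the autosomes. There the 16-cell share was 20.2% on X and 23.2% on the autosomes, and the in vivo morula share 9.52% on X and 20.4% on the autosomes. Over all 4-cell only peaks the in vivo morula share was 18.8% on X and 19.8% on the autosomes. For 2-cell only peaks outside windows of 5 or more, the 8-cell share was 28% on X (7 of 25, interval 12.1% to 49.4%). It was 13.4% on the autosomes (183 of 1366, interval 11.6% to 15.3%), so the intervals overlapped. Chromosome 18 was the autosome with the highest 8-cell share of 4-cell only peaks, 46.9% (67 of 143), and it is also covered more by the 8-cell list (2.34%). Chromosome 4 had the lowest, 14.9% (27 of 181). X and these autosomes were chosen after their values were seen.

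Peaks were denser at the far ends of the chromosomes, in each class and over all peaks of each list. The last Mb of the chromosomes, 1.13% of the spanned genome, held 3.49% of the shared, 2.29% (interval 1.9% to 2.74%) of the 4-cell only and 3.81% (interval 3% to 4.76%) of the 2-cell only peaks. It held 2.43% of all 4-cell and 3.76% of all 2-cell peaks, near the shares of the stage-only classes. The first Mb held 13.1% of the shared, 1.69% of the 4-cell only and 2.21% of the 2-cell only peaks. There the share was 2.98% of all 4-cell and 5.35% of all 2-cell peaks. The first Mb of chromosomes other than 14 held 4.1% of all shared, 0.99% of all 4-cell only and 1.39% of all 2-cell only peaks. Of whole lists it held 1.34% of the 4-cell and 2.2% of the 2-cell peaks. In the shares without chromosome 14 that chromosome was still counted in the totals.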
